A study of Cricetulus griseus with 19 samples.

Results

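The 7 cultures described here are the libraries labelled Paradoxical feedback, of 19 libraries in the series, all made from Paradaux cells, a derivative of the Chinese hamster ovary line CHO-K1. They were read as 4 cultures (replicates 1, 3, 5 and 6) against 3 cultures (replicates 2, 4 and 7). That division was seen in the estimated read counts per transcript and no label marks it, so the differences between the sets are described without a test. The other libraries were 1 of the parental line, 4 from long-term uncontrolled growth and 7 from long-term Negative feedback. All had the same handling in the labels' protocols, with 2 days of growth under 80% confluence before polyadenylated RNA was taken. No label gives the drug, the signal concentration or the time under each regime, or says whether the numbered cultures were kept apart throughout, so p-values measure the spread between these libraries, part of which may be technical.

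Paradaux cells carry a synthetic population-control circuit in which auxin, a plant hormone, serves as the signal between cells. As known from the circuit's design, the signal acts on a drug-resistance protein that permits growth and on an inducible caspase-9 that drives cell death. Feedback is called negative where the signal only limits the population, and paradoxical where the same signal acts on growth and on death. A cell that loses part of such a circuit can escape control and spread through a culture, so long culture tests how a circuit lasts. The deposited index held 1 target for the inserted DNA, vYM133_linearized_insertion, of 8694 nt. Marker lists of mesenchymal, epithelial and blood cells had no tested member with a symbol, so the cell label could not be checked against them.

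Levels are given as CPM, counts scaled to a fixed total after TMM normalization, and differences between the sets as log2 values from mean log2 CPM, with 1 standing for 2-fold. Of 28555 targets tested, 284 carried a symbol of a protein-coding gene in a RefSeq table and are called named genes. Where kallisto divided reads among similar transcripts, a gene is said to have shared reads, and its value is less certain than the counts alone show. Whole-count targets, 5933 in number, had whole counts in all 19 libraries.

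RNA of the inserted construct was higher in cultures 1, 3, 5 and 6, at 1990, 2114, 1981 and 2156 CPM, than in cultures 2, 4 and 7, at 1550, 1227 and 1240 CPM. The insert was not a whole-count target, so its level, with shared reads, is less certain than the counts alone show. The sets did not overlap, and their means, 2060 ± 87.7 CPM (SD, n = 4) and 1339 ± 183 CPM (SD, n = 3), were 1.55-fold apart. Among all targets tested, 15.5% did not overlap between these sets and 10.6% were also at least 1.5-fold apart. The 4 uncontrolled cultures had 1790, 2222, 2100 and 1657 CPM of insert RNA and the parental line 1703 CPM. The 7 negative feedback cultures ran from 1449 to 2218 CPM with a median of 1782 CPM. Cultures 4 and 7 were therefore the lowest of all 19 libraries, while cultures 1, 3, 5 and 6 lay inside the range of the uncontrolled cultures. In bulk RNA, fewer cells carrying a transcript and less RNA per cell cannot be told apart.

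The size of this gap moved with the scaling. It was 0.63 on the log2 scale with TMM, 0.46 with library size alone, 0.92 once the dependence on transcript length described below was removed, and 0.32 on deposited TPM. In TPM, cultures 1, 3, 5 and 6 had 252, 262, 209.6 and 242, and cultures 2, 4 and 7 had 217, 177 and 186, so that culture 5 lay below culture 2 and the sets overlapped. Cultures 4 and 7 were again the lowest of the 19. Leaving out each culture in turn gave 0.57 to 0.74, and sets that do not overlap cannot come to overlap in that way. The files hold 1 target for the whole insert, so its genes, the resistance protein and the caspase among them, were not read separately.

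**Figure D1:**
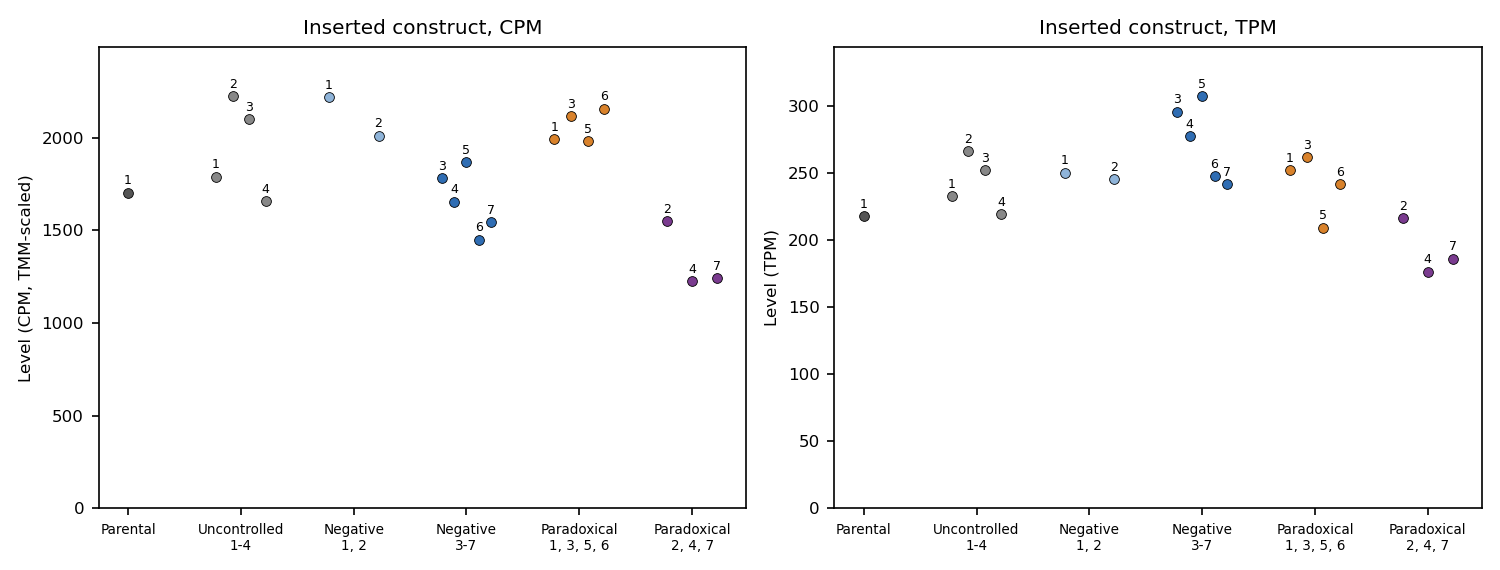
RNA of the inserted construct in each of the 19 libraries, as CPM (left) and as deposited TPM (right), with 1 point per library by condition and the paradoxical cultures shown as 2 sets. Cultures 4 and 7, at 1227 and 1240 CPM, are the lowest on both scales, while the sets overlap on the TPM scale.

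On whole-count targets, the division into 4 and 3 cultures was the leading axis among the paradoxical libraries, but the 2, 4 and 7 set was not compact. Over all 28555 targets, the first principal component of the 7 cultures held 23.4% of the variance. Culture 3 scored 23.4 there, on the positive side with cultures 2, 4 and 7, at 100.3, 120.7 and 58.7. Cultures 1, 5 and 6 scored -55.3, -142.7 and -105.1. On 4501 whole-count targets whose mean log2 CPM was 1 or more, the first principal component of the 7 cultures held 41.4% of the variance and the second 24.2%. Cultures 1, 3, 5 and 6 scored -16.9, -10.4, -17.9 and -13.6 on the first, and cultures 2, 4 and 7 scored 25.8, 27.7 and 5.32. Culture 7 thus lay inside the range of the uncontrolled cultures projected onto that axis, 2.03 to 9.97, and below the negative feedback cultures 3 to 7, at 6.29 to 16.0.

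Distances between pairs of cultures, as root mean square log2 differences over the same targets, gave the same order. Cultures 5 and 6 were the closest pair at 0.276. Within cultures 1, 3, 5 and 6 the mean was 0.503, within cultures 2, 4 and 7 it was 0.63, and between the sets it was 0.7. Culture 7 was nearer to cultures 1, 3, 5 and 6, at 0.531, 0.555, 0.593 and 0.51, than to cultures 2 and 4, at 0.601 each. Over all 28555 targets, shared reads included, the order was less clear, with culture 7 at 1.70 from both cultures 2 and 4 and at 1.69, 1.71, 1.81 and 1.75 from cultures 1, 3, 5 and 6. Culture 3 was likewise nearer to culture 7 than to cultures 1, 5 and 6, at 0.616, 0.652 and 0.597. For comparison, uncontrolled cultures differed from each other by 0.465 on average, and negative feedback cultures 3 to 7 by 0.293. Negative feedback cultures 1 and 2 are given apart from 3 to 7 because their values differ, by 1.17 on this measure, and that division too carries no label.

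**Figure D2:**
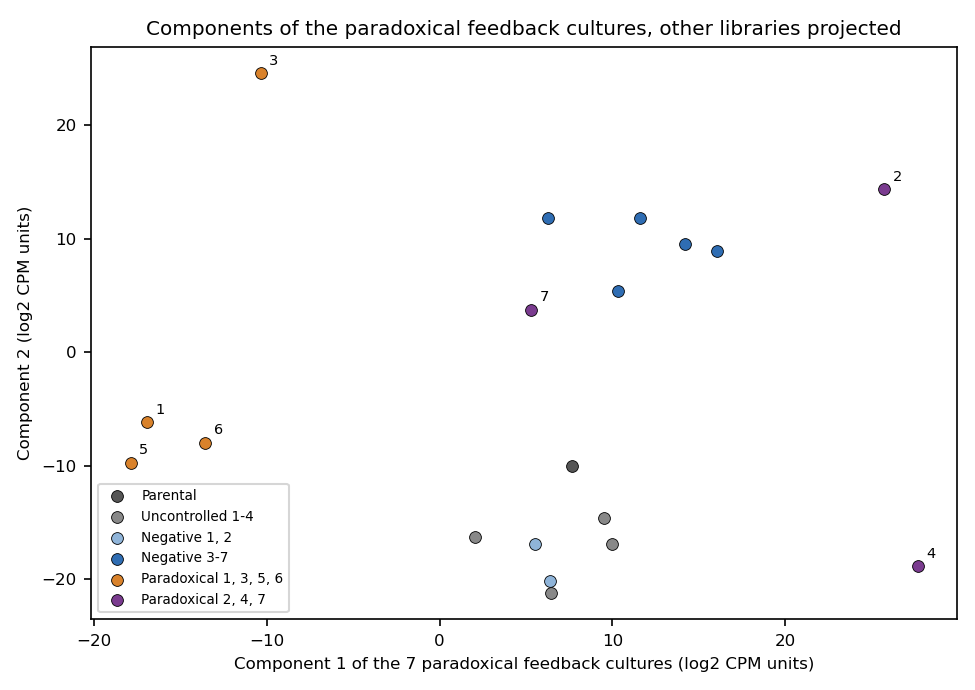
First and second principal components of the 7 paradoxical cultures (41.4% and 24.2% of variance) on whole-count targets, with the other 12 libraries projected onto the same axes. Cultures 1, 3, 5 and 6 have negative first scores and cultures 2, 4 and 7 positive ones, with culture 7 at 5.32 among the uncontrolled cultures.

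The spread of single targets was larger in the paradoxical than in the uncontrolled cultures. The median SD of log2 CPM over whole-count targets was 0.384 in the 7 paradoxical cultures, 0.231 in the 4 uncontrolled cultures and 0.176 in negative feedback cultures 3 to 7. It was 0.465 over all 7 negative feedback cultures, with both of their sets together. An SD above 1 was found for 378 whole-count targets in paradoxical cultures (6.37%) and for 217 in uncontrolled cultures (3.66%).

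Of all targets tested, 15.5% had no overlap between the paradoxical sets and 5.67% were also at least 2-fold apart, 1104 of them (3.87% of all) higher in cultures 2, 4 and 7 and 515 (1.8%) higher in cultures 1, 3, 5 and 6. Among named genes, 60 of 284 (21.1%) did not overlap and 7 (2.46%) passed the 2-fold limit. At 1.5-fold, a limit applied to naming after the values had been seen, 10.6% of all targets and 12.3% of named genes were apart, so named genes were not far from the background. The 35 named genes divided into 19 higher in cultures 1, 3, 5 and 6 (6.69%, beside 4.75% of all targets) and 16 higher in cultures 2, 4 and 7 (5.63%, beside 5.85%). Just inside the 2-fold limit lay Slc19a1 at 1.08, Gja1 at -1.09 and Mmp14 at -1.10, and just outside it St8sia4 at -0.99, Cbx5 at 0.98 and Lamp2 at -0.97. Leaving out culture 7 raised the 2-fold counts from 1619 to 4020 targets and from 7 to 27 named genes. Leaving out culture 2 gave 17 named genes and leaving out culture 3 gave 23.

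Of the cytosolic chaperones, which fold proteins and hold them ready during stress, Hspa8 and Stip1 were higher in cultures 1, 3, 5 and 6. Hspa8, the constitutive Hsc70 chaperone, had 4174, 4821, 4365 and 4501 CPM there and 2754, 2494 and 3259 CPM in cultures 2, 4 and 7. Uncontrolled cultures had 885, 990, 1875 and 1048 CPM, so that even the lower paradoxical set lay above all of them. The means of the paradoxical sets were 1.58-fold apart. Stip1, which hands clients from Hsp70 to Hsp90, had 678, 782, 773 and 794 CPM against 546, 368 and 539 CPM, with uncontrolled cultures at 300 to 406 CPM. Both genes separated without overlap.

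Hsp90aa1, the inducible Hsp90, overlapped, with 1179, 1691, 1054 and 1173 CPM against 1024, 625 and 1058 CPM. The co-chaperone Hsph1 had 248 to 356 CPM against 181 to 255 CPM. Of 4 tested members of the list of cytosolic heat shock chaperones, all 4 had a higher mean in cultures 1, 3, 5 and 6 with TMM and 3 of 4 with TPM. At 1.5-fold, where 10.6% of all targets were apart, 2 separated with TMM and 0 with library size alone or TPM. The list's median difference was 0.59, beside -0.01 over all targets. The chaperonin subunit Tcp1, outside that list, was 0.62 higher in the same cultures, with shared reads.

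Tubulins, the subunits of microtubules, showed the same division at high levels. Tuba1b had 2360, 2613, 2819 and 2798 CPM in cultures 1, 3, 5 and 6 and 1580, 1003 and 1715 CPM in cultures 2, 4 and 7, against 634, 672, 784 and 767 CPM in uncontrolled cultures. Tuba1c had 665, 633, 583 and 627 CPM against 423, 295 and 518 CPM. The beta-tubulin Tubb had 3152, 3287, 3939 and 4073 CPM against 1946, 1818 and 2554 CPM, and Tubb4b had 657, 557, 738 and 732 CPM against 369, 404 and 487 CPM. The paradoxical sets were apart by 0.92, 0.64, 0.79 and 0.68 on the log2 scale for these 4 genes in turn, and culture 4 had the lowest level of the 7 for all but Tubb4b. All 4 have shared reads, and they are near-identical paralogs, so the division between family members is uncertain. The cytoskeleton list held Tuba1b, Tuba1c, Tubb4b and the actin Actb, which differed by -0.12. At 1.5-fold, where 10.6% of all targets were apart, 3 of its 4 members separated with TMM. With library size alone or TPM, 1 did.

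Genes of DNA replication also lay higher in cultures 1, 3, 5 and 6. Pcna, the sliding clamp of DNA polymerase, had 276, 360, 300.4 and 298 CPM there, 201, 152 and 227 CPM in cultures 2, 4 and 7, and 62.4, 76.8, 115 and 101 CPM in uncontrolled cultures. Tk1, the thymidine kinase of S phase, had 90.1, 91.6, 173 and 150.2 CPM against 88.7, 43.7 and 79.0 CPM, with shared reads. Its sets were separated by the small gap between culture 2 and culture 1. Cdt1, which loads the replicative helicase at origins, had 37.3, 46.5, 32.6 and 30.9 CPM against 28.5, 14.4 and 30.6 CPM, and there culture 7 lay just below culture 6.

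The origin recognition subunits Orc5 and Orc1 followed the same order. Orc5 had 79.6, 86.6, 72.1 and 69.1 CPM against 52.2, 33.9 and 57.3 CPM, while uncontrolled cultures had 48.7 to 57.5 CPM. Orc1 had 52.7, 65.7, 51.5 and 53.5 CPM against 45.3, 22.3 and 48.0 CPM. Both have shared reads. The origin-firing kinase Cdc7 and topoisomerase Top1 were higher in the same cultures by 0.64 and 0.60. Culture 4 held the lowest value of the 7 for Pcna, Tk1, Cdt1, Orc5 and Orc1.

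In the list of G1/S and replication genes, 4 of 8 tested members separated at 1.5-fold with TMM, all higher in cultures 1, 3, 5 and 6. At that limit 10.6% of all targets were apart, with 4.75% higher in those cultures. The list's median was 0.5. With library size alone none of the 8 was that far higher in those cultures and 1 was higher in cultures 2, 4 and 7, the same as with TPM, while the median kept its sign at 0.33 and 0.18. Cyclin D1 (Ccnd1) stood on the other side, with 2.30 to 3.81 CPM in cultures 1, 3, 5 and 6 and 3.71 to 6.15 CPM in cultures 2, 4 and 7. Cdk2, the S-phase kinase, overlapped, at 53.2, 43.2, 29.5 and 34.3 CPM against 34.1, 29.5 and 37.9 CPM.

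Ribosomal proteins, the structural parts of ribosomes, had a median difference of 0.49. The 6 tested members all had a higher mean in cultures 1, 3, 5 and 6 under every scaling tried. Of these, 4 did not overlap with TMM, beside 15.5% of all targets, and 2 with library size alone or TPM, and none both separated and reached 1.5-fold. The largest difference, 2.20, was that of Rps2, which overlapped at low levels with shared reads, at 2.91, 7.16, 6.27 and 2.21 CPM against 2.79, 1.47 and 0 CPM. Rps4x had 1717, 1925, 2274 and 1998 CPM against 1524, 1378 and 1193 CPM, a difference of 0.54. For Rps14 the values were 560, 572, 820 and 702 CPM against 487, 489 and 418 CPM. Culture 5 was the highest of the 7 and culture 7 the lowest for Rps4x, Rps14 and Rps7.

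Chromatin proteins were represented by Cbx5, the heterochromatin protein HP1 alpha, with 83.5, 85.1, 142 and 117 CPM against 52.1, 38.5 and 73.6 CPM, with shared reads. Its relative Cbx3 overlapped, at 315 to 476 CPM against 206 to 336 CPM. Cenpb, a centromere-binding protein, had 28.7, 21.9, 27.3 and 25.5 CPM against 10.5, 19.6 and 16.2 CPM, with shared reads. Uncontrolled cultures had 48.1 to 95.9 CPM of Cbx5 and 16.0 to 18.4 CPM of Cenpb, so both lay nearer to cultures 2, 4 and 7.

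A few further genes were higher in cultures 1, 3, 5 and 6. Slc19a1, the reduced folate carrier, was the only named gene on that side that separated past 2-fold, at 7.76, 6.35, 11.6 and 11.8 CPM against 3.44, 4.56 and 4.65 CPM, with shared reads. Aimp1, a scaffold of the multi-tRNA synthetase complex, had 393, 228, 284 and 268 CPM against 143, 169 and 161 CPM. Tst, a mitochondrial sulfurtransferase, was even across its set, with 70.2, 73.5, 71.1 and 69.5 CPM against 47.1, 27.4 and 51.4 CPM. The uncontrolled cultures had 6.74 to 10.2, 181 to 261 and 38.4 to 44.3 CPM of these genes in turn.

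**Figure D3:**
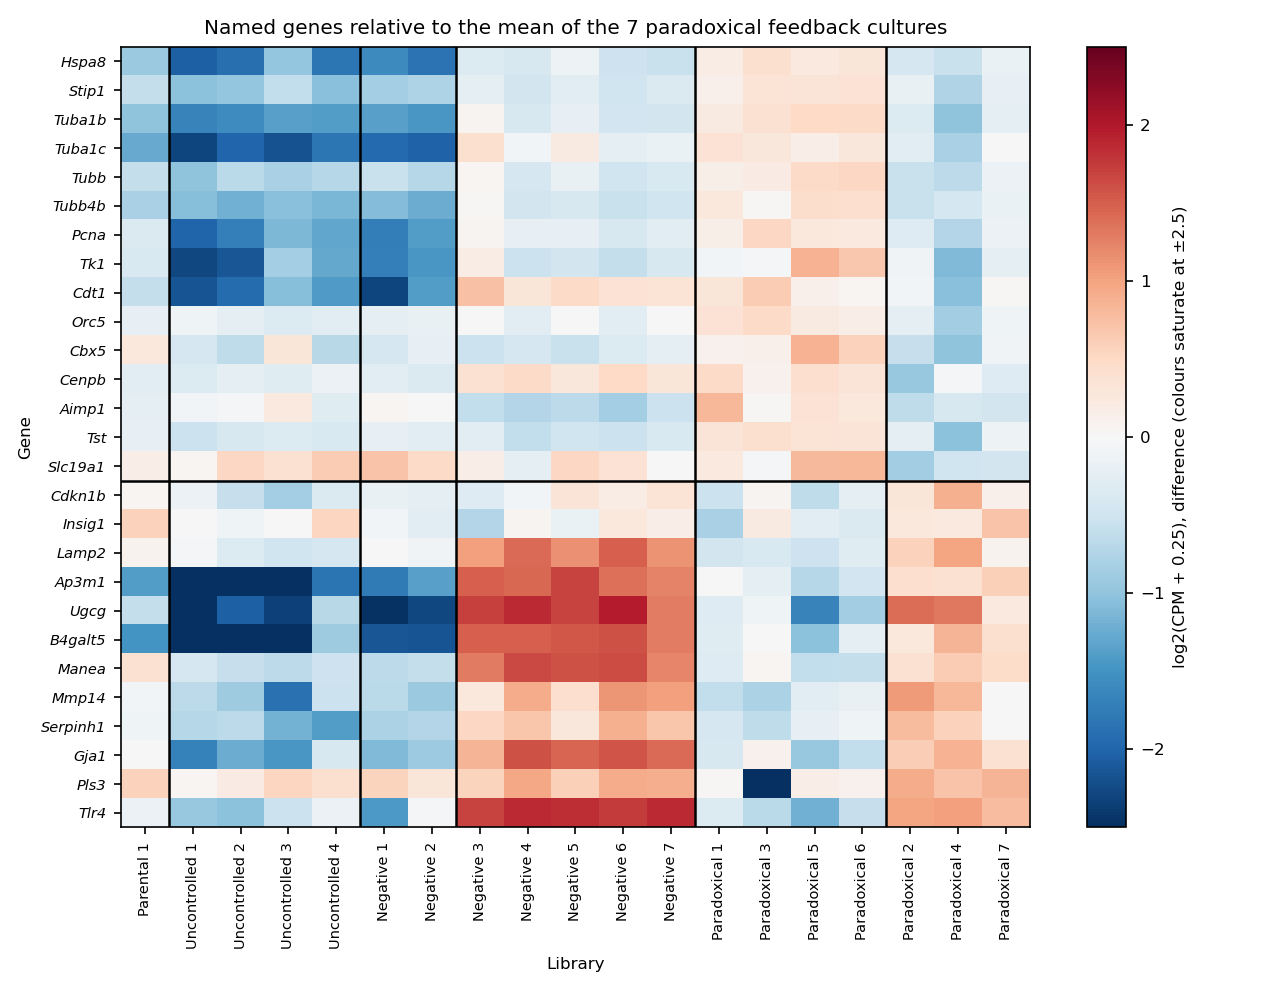
Levels of 27 genes in the 19 libraries, as log2 CPM relative to the mean of the paradoxical cultures, with libraries in columns by condition and genes in rows by the set in which they were higher. Hspa8, Tuba1b and Pcna are above the mean in cultures 1, 3, 5 and 6 and below it in uncontrolled cultures, while Ugcg, Gja1 and Lamp2 are above it in cultures 2, 4 and 7 and in negative feedback cultures 3 to 7.

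Named genes higher in cultures 2, 4 and 7 included enzymes of the Golgi, surface and matrix proteins and a lysosomal membrane protein. Ugcg, which makes glucosylceramide, the first step of most glycosphingolipids, had 24.1, 22.9 and 10.8 CPM there and 7.19, 8.34, 2.64 and 4.79 CPM in cultures 1, 3, 5 and 6. The means were 3.36-fold apart. Uncontrolled cultures had 1.15, 1.99, 1.58 and 5.495 CPM and the parental line 5.88 CPM. Negative feedback cultures 1 and 2 had 1.43 and 1.65 CPM, and cultures 3 to 7 had 30.0, 33.4, 29.6, 35.7 and 22.2 CPM. Cultures 2, 4 and 7 thus lay above the uncontrolled cultures and below 4 of these 5 negative feedback cultures, and cultures 2 and 4 lay above the lowest of the 5.

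Other enzymes of the Golgi followed. B4galt5, the galactosyltransferase that extends glucosylceramide, had 6.31, 9.58 and 6.98 CPM in cultures 2, 4 and 7 against 4.20, 5.26, 2.45 and 4.41 CPM. Manea, a Golgi endomannosidase, had 10.2, 12.2 and 10.8 CPM against 6.14, 7.98, 4.99 and 5.08 CPM. Slc35a3, a Golgi transporter of UDP-N-acetylglucosamine with shared reads, was chosen for mention after its values were seen. It had 0.328, 1.31 and 2.97 CPM in cultures 2, 4 and 7 and 0 in cultures 1, 3, 5 and 6, in all uncontrolled cultures and in the parental line. Against a floor of 3 counts per library, a mean of 0.274 CPM that covers counting error only, it was at least 5.61-fold higher in cultures 2, 4 and 7, and at least 2.99-fold without culture 7. Culture 2 itself lay close to its own floor of 0.246 CPM. In negative feedback cultures 1 and 2 Slc35a3 was also at 0. Negative feedback cultures 3 to 7 had 8.65, 15.4, 9.25, 13.3 and 4.94 CPM, above every paradoxical culture. The list of glycosylation and sugar-nucleotide transport genes as a whole did not move one way, with 6 of 11 members higher in cultures 1, 3, 5 and 6 and a median of 0.

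Among surface and matrix genes, Mmp14, a membrane-bound collagenase, had 118, 98.9 and 55.0 CPM in cultures 2, 4 and 7 against 36.5, 32.1, 45.6 and 48.8 CPM. Serpinh1, the collagen chaperone, had 95.5, 82.4 and 56.0 CPM against 41.4, 35.4, 47.9 and 51.2 CPM, with shared reads. For both, culture 7 lay close to the other set and cultures 2 and 4 far from it. Gja1, the gap junction protein connexin 43, had 151, 178 and 128 CPM against 74.2, 105, 50.7 and 64.0 CPM. Uncontrolled cultures had 30.4, 41.4, 35.7 and 74.4 CPM of Gja1 and negative feedback cultures 3 to 7 had 177 to 296 CPM.

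Tlr4, the receptor for bacterial lipopolysaccharide, was also higher in cultures 2, 4 and 7, at 24.3, 24.7 and 20.9 CPM against 9.45, 7.44, 5.09 and 8.05 CPM, with shared reads. Pls3, an actin-bundling plastin, had 335, 287 and 315 CPM against 179, 25.03, 196 and 190.2 CPM. The low value of culture 3 carried much of that gap, since the difference was -1.45 with it and -0.73 without it. All other 18 libraries had at least 179 CPM of Pls3.

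Lamp2, a lysosomal membrane protein, had 71.4, 95.1 and 50.6 CPM in cultures 2, 4 and 7 against 34.7, 36.5, 33.0 and 38.3 CPM, and 33.5 to 46.3 CPM in uncontrolled cultures. Lamp1 overlapped, at 749, 898 and 517 CPM against 482, 425, 614 and 568 CPM, as did the cholesterol exporter Npc1. All 3 tested lysosome genes had the higher mean in cultures 2, 4 and 7 under every scaling tried. Ap3m1, a subunit of the adaptor that sorts cargo to lysosomes, had 39.1, 37.8 and 44.0 CPM against 29.3, 24.6, 17.6 and 20.7 CPM, with shared reads.

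Cdkn1b, the cyclin-dependent kinase inhibitor p27, was higher in cultures 2, 4 and 7, at 26.1, 39.6 and 23.0 CPM against 14.54, 22.2, 13.6 and 17.9 CPM. Culture 4, which was lowest for Pcna, was highest for Cdkn1b. It was the only tested member of the list of growth arrest genes, and uncontrolled cultures had 19.1, 14.1, 11.6 and 16.5 CPM. In sterol control, Insig1, which holds the sterol sensor in the endoplasmic reticulum, had 60.7, 59.9 and 83.3 CPM against 28.8, 59.4, 41.3 and 39.5 CPM, with culture 3 just below culture 4. Srebf2, the transcription factor of sterol synthesis, was 0.38 higher in cultures 2, 4 and 7, without overlap and under 1.5-fold. The 10 tested sterol and fatty acid genes had a median of -0.22, with 3 higher in cultures 1, 3, 5 and 6.

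**Figure D4:**
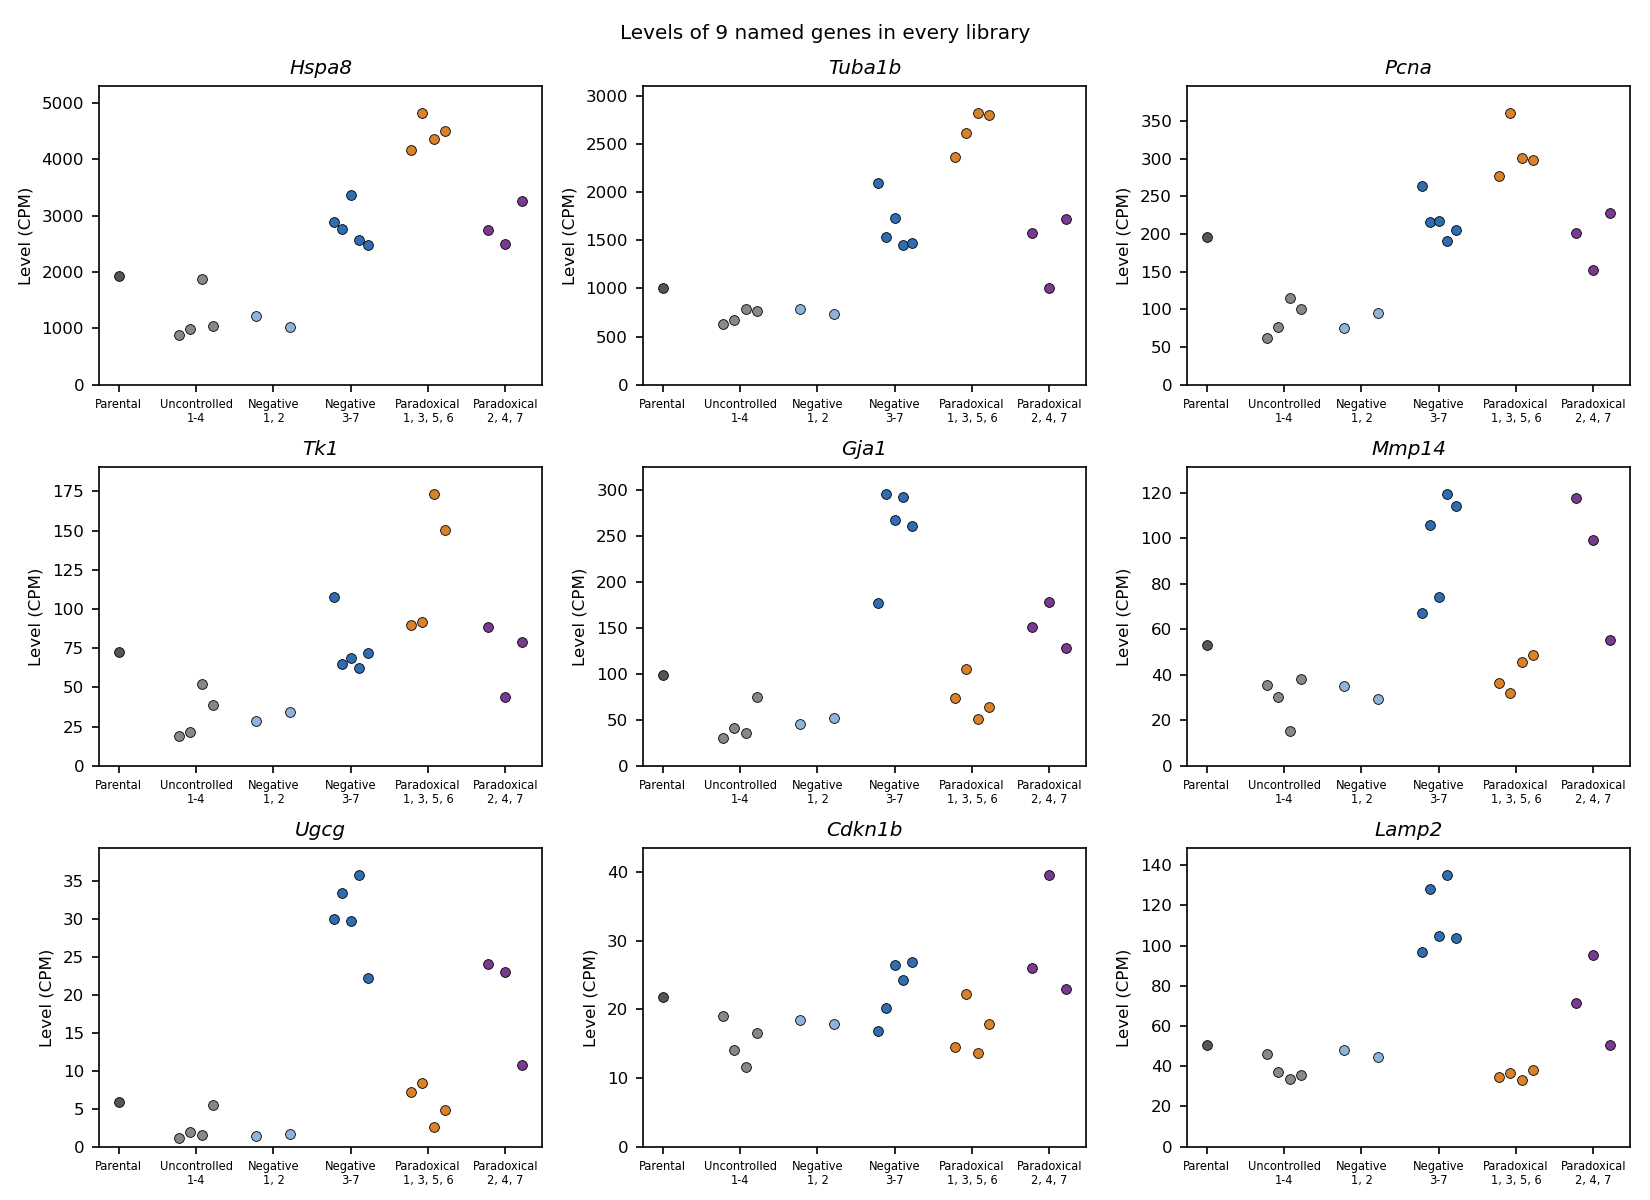
CPM of 9 genes in each library by condition, with the paradoxical cultures shown as 2 sets. Hspa8, Tuba1b, Pcna and Tk1 are higher in cultures 1, 3, 5 and 6, and Gja1, Mmp14, Ugcg, Cdkn1b and Lamp2 in cultures 2, 4 and 7. Of its set, culture 7 is nearest to the other set for every gene shown except Tk1.

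Several groups did not divide this way, beside 15.5% of all targets whose sets did not overlap. Of 11 tested targets of endoplasmic reticulum chaperones and the unfolded protein response, none separated with TMM and the median was 0. With library size alone or TPM, 1 separated, higher in cultures 2, 4 and 7. Hspa5, the chaperone BiP, had 1861, 1405, 2236 and 2674 CPM against 1903, 2802 and 1071 CPM, with the highest and the lowest culture both in the 2, 4 and 7 set. No member of the list separated among 7 apoptosis genes, and Casp9 itself was low, at 1.44 to 3.07 CPM against 1.28 to 3.40 CPM. Casp2 had 2.25 to 7.71 CPM against 4.18 to 5.10 CPM.

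Mitotic genes overlapped too. Top2a, the topoisomerase of dividing cells, had 692, 758, 636 and 651 CPM against 601, 428 and 887 CPM, where culture 7 was the highest and culture 4 the lowest. Cdc25b, a phosphatase that starts mitosis, had 51.7, 57.0, 38.7 and 39.4 CPM against 35.5, 35.5 and 52.9 CPM. For both, cultures 2 and 4 held the lowest levels of the 7. The mitotic kinesin Kif23 did not follow, with culture 2 the highest at 162 CPM and culture 4 the lowest at 69.6 CPM. The microRNA-processing enzyme Dicer1, with shared reads, had 13.3, 22.03, 7.64 and 13.4 CPM against 11.6, 4.40 and 16.8 CPM, and Ahr, a receptor for indole compounds, 1.27 to 5.26 CPM against 3.85 to 13.1 CPM. Neither Abcb1, a drug efflux pump, nor the adhesion molecule Icam1 separated, at 54.5 to 69.1 against 35.2 to 70.6 CPM and 367 to 682 against 204 to 418 CPM.

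In the remaining lists few members separated, beside 15.5% of all targets whose sets did not overlap. Of 5 genes of glucose uptake and glycolysis, 1 did so without reaching 1.5-fold, Gapdh, at 9376, 9568, 11190 and 10520 CPM against 9279, 7441 and 7571 CPM. Of 10 DNA repair genes, Xrcc5 and Ercc3 did so, by 0.26 and 0.17, and their list's median was 0.12. With TMM, no overlap-free difference was found among 6 redox defence genes, 4 of nucleotide and folate metabolism, 6 of G proteins, 2 of mitochondrial energy, 2 translation factors, 2 of secretory traffic, 2 of RNA processing and 3 of drug efflux and detoxification.

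For some genes the variation belonged to 1 culture and not to the sets. Genes in this paragraph were chosen by their SD over the 7 cultures, after the values were seen. Cxcl3, a neutrophil chemokine with shared reads, had 480.5 CPM in culture 1 and 1.81 to 16.1 CPM in the other 6. Vgf, a secreted neuropeptide precursor, had 18.5 CPM in culture 4 and 2.09 to 5.08 CPM elsewhere. Akr1b8, an aldo-keto reductase with shared reads, had 562 CPM in culture 3 and 71.9 to 266 CPM in the others. Slc1a4, a neutral amino acid transporter, came close to the division at 11.6, 33.6 and 43.3 CPM against 5.90, 14.96, 3.92 and 5.85 CPM, with culture 3 above culture 2. Gpx1, a glutathione peroxidase, was highest in cultures 5 and 6, at 596 and 815 CPM, and lowest in culture 3 at 125 CPM.

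The libraries of the sets also differed in make-up. Totals overlapped, at 12.8, 12.1, 11.5 and 11.5 M estimated counts against 12.3, 12.1 and 11.9 M, within 9.91 to 13.2 M over all 19. TMM factors did not overlap, at 0.967, 0.914, 0.888 and 0.906 against 0.991, 1.07 and 1.05. Whole-count targets took 43.1%, 42.8%, 43.3% and 43.1% of counts in cultures 1, 3, 5 and 6 and 41.7%, 41.9% and 41.8% in cultures 2, 4 and 7. Targets under 800 nt took 10.03%, 9.48%, 12.4% and 11.4% against 8.91%, 9.79% and 8.504%, with overlap, beside 12.2% to 13.4% in uncontrolled cultures and 6.12% to 7.22% in negative feedback cultures 3 to 7.

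In step with this, the difference between the sets depended on transcript length. Its median over whole-count targets was 0.18 for targets under 500 nt, 0.22 for 500 to 800 nt, 0.15 for 800 to 1500 nt, 0.07 for 1500 to 3000 nt, -0.06 for 3000 to 6000 nt and -0.22 above 6000 nt. At 8694 nt the insert lay in the longest class, whose median was lower in cultures 1, 3, 5 and 6, while the insert was higher there. The part of RNA quality or library preparation in these differences was not tested. Scaling moved the balance of the 2-fold calls over all targets, from 515 against 1104 with TMM to 324 against 1567 with library size alone, 991 against 1008 with the length trend removed and 162 against 1099 with TPM. Named genes at 1.5-fold went from 19 against 16 to 6 against 26, 18 against 16 and 2 against 32 under the same settings. The median of all targets shifted from -0.01 to -0.17, 0.03 and -0.15. No named gene listed here as apart changed sign under any of these settings.

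**Figure D5:**
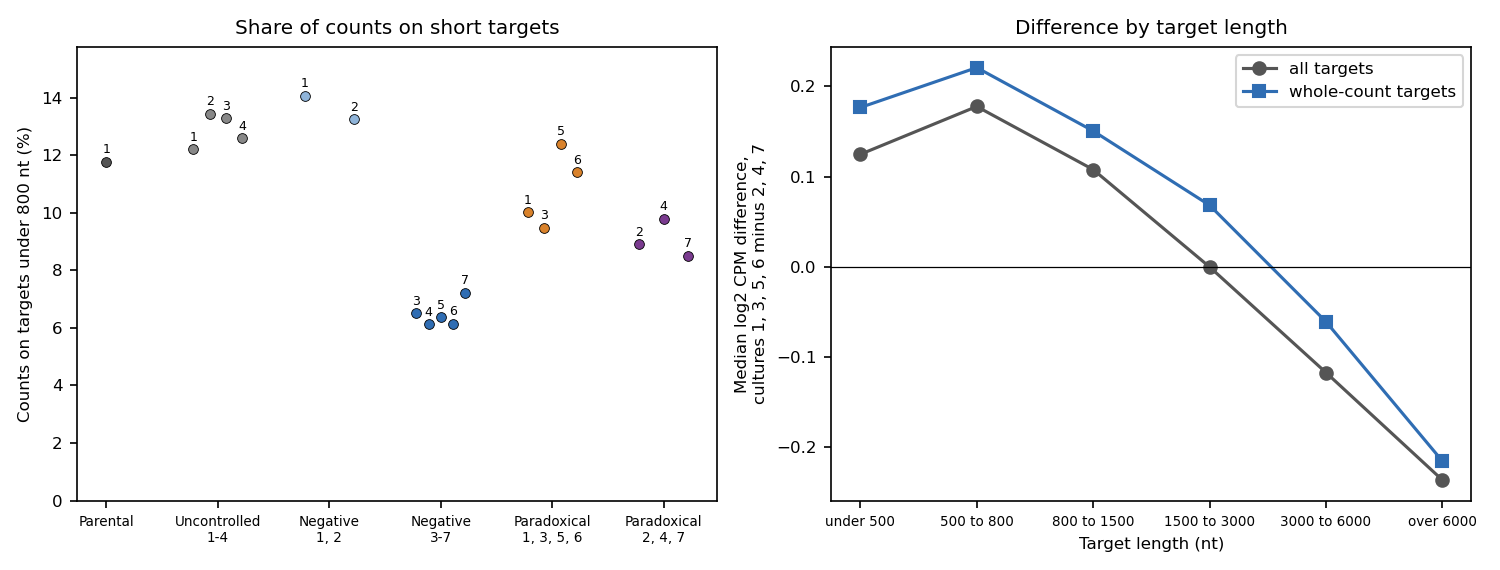
Left, share of counts on targets under 800 nt in each library, in percent; right, median log2 difference between paradoxical cultures 1, 3, 5 and 6 and cultures 2, 4 and 7 by transcript length class, for all and for whole-count targets. Medians fall from above 0 for short targets to -0.24 and -0.22 for targets over 6000 nt.

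Beside the other conditions, neither set was simply closer to the uncontrolled cultures. The mean distance to them was 0.896 for cultures 1, 3, 5 and 6 and 0.875 for cultures 2, 4 and 7, and to negative feedback cultures 3 to 7 it was 0.809 and 0.72. Paradoxical culture 7 was the nearest to those negative feedback cultures, at 0.494 to 0.641. Cultures 2 and 4 lay at 0.680 to 0.798 and 0.691 to 0.822. They overlapped with cultures 1, 3 and 6, at 0.680 to 0.840, 0.692 to 0.818 and 0.685 to 0.859. Culture 5 lay at 0.785 to 0.963. Of the 19 named genes higher in cultures 1, 3, 5 and 6, the uncontrolled mean lay below both sets for 11 and between them for 8, and it was nearer to cultures 2, 4 and 7 for 17 (89.5%). Over all 1355 targets apart in that direction at the same limit, it was nearer to cultures 2, 4 and 7 for 53.6%. Of the 16 named genes higher in cultures 2, 4 and 7, it lay below both sets for 11 and was nearer to cultures 1, 3, 5 and 6 for 14 (87.5%), beside 51.4% of all 1670 such targets. For those 16 genes negative feedback cultures 3 to 7 lay above both paradoxical sets in 12 (75%), beside 36.9% of all such targets. At 2-fold over all targets, the uncontrolled mean was nearer to cultures 1, 3, 5 and 6 for 57.5% of those higher there, so the named genes do not stand for all targets in this. The difference between the paradoxical sets and that between negative feedback cultures 3 to 7 and 1 to 2, which share no library, had a Pearson r of -0.34 across the 284 named genes, -0.21 across all 28555 targets and -0.02 across the 5933 whole-count targets. It was -0.10 across the 4501 of these with higher levels and -0.29 across the 154 whole-count named genes, so the relation was weak in each. Genes are not independent replicates, and transcript length bears on both differences.

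The labelled groups were tested with edgeR's quasi-likelihood test over all 19 libraries, with Benjamini-Hochberg adjustment over all targets. Here all 7 paradoxical cultures stand together, so these tests share their libraries with the differences above and do not test the division. Against uncontrolled cultures, 1835 targets were called at an adjusted p under 0.05, 6.43% of those tested, with 1408 higher (4.93%) and 427 lower (1.5%). Among named genes 59 of 284 were called, 56 of them higher. Of the 19 named genes higher in cultures 1, 3, 5 and 6, 10 were called higher than in uncontrolled cultures and none lower, and of the 16 on the other side 1 was called higher, Ap3m1, by 3.19 ± 0.91 with an adjusted p of 0.0455.

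By this test Hspa8 rose by 1.65 ± 0.33 (SE) on the log2 scale with an adjusted p of 0.0144, and Tuba1b by 1.57 ± 0.31 with 0.0142. Pcna rose by 1.55 ± 0.33 with an adjusted p of 0.0168. Every one of the 7 paradoxical cultures lay above every uncontrolled culture for these 3 genes. Stip1, Tubb, Tk1 and Cdt1 rose too, with adjusted p of 0.0149, 0.0273, 0.0296 and 0.0492. All 4 cytosolic chaperones were called higher, as were 4 of 8 G1/S and replication genes. The calls depended on which uncontrolled cultures were kept. Of the 16 called genes followed through the alternatives, all 16 passed the limit no longer without uncontrolled culture 1 and likewise without culture 2. Hspa8 then had an adjusted p of 0.0616 and 0.0586, Tuba1b 0.0587 and 0.0565, and Pcna 0.0696 and 0.0630, and no fold change of the 16 changed sign. Orc5, Cbx5 and Aimp1 were not called, with adjusted p of 0.339, 0.370 and 0.845.

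The main genes higher in cultures 2, 4 and 7 did not pass that test. Ugcg differed from uncontrolled cultures by 2.17 ± 0.88 with an adjusted p of 0.132, Gja1 by 1.24 ± 0.51 with 0.142, Mmp14 by 1.06 ± 0.45 with 0.147 and B4galt5 by 2.39 ± 0.81 with 0.0801, all from edgeR and none past the limit. That fit drew its spread from all 19 libraries. Over all negative feedback cultures, the SD of log2 CPM of these genes in turn was 2.03, 1.19, 0.82 and 1.82. Within negative feedback cultures 3 to 7 it was 0.26, 0.30, 0.38 and 0.12. Whether these genes pass in a fit without those cultures was not tested. Among genes that did not divide the paradoxical cultures, Hspa5 fell by 1.99 with an adjusted p of 0.0431, and Cdk2, Cdc25b and Icam1 rose by 2.32, 1.93 and 1.77 with 0.0212, 0.0197 and 0.0172. The insert was not called, at -0.15 ± 0.17 with an adjusted p of 0.630. The count of 1835 fell to 127, 150, 644 and 546 without uncontrolled cultures 1, 2, 3 and 4 in turn, and to 1104, 1005 and 1019 without paradoxical cultures 1, 3 and 6. Against negative feedback, 77 targets were called (0.27%), 47 higher (0.165%) and 30 lower (0.105%), 1 of them a named gene. That count was 5 without paradoxical culture 1 and 0 without paradoxical culture 3, 5 or 6, where 4665, 4214 and 4272 targets had an unadjusted p under 0.05 in edgeR, and 0 to 7 without any 1 of negative feedback cultures 3 to 7. It was 989 and 865 without negative feedback cultures 1 and 2 and 281 without paradoxical culture 4.

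Most targets that divided the paradoxical cultures were predicted transcripts without a symbol, and the most extreme whole-count ones were at low levels. XM_007653246.3 had 7.27, 13.96, 6.76 and 2.88 CPM in cultures 1, 3, 5 and 6 and 1.23, 0.232 and 1.04 CPM in cultures 2, 4 and 7. XM_027442090.1 had 6.55, 4.44, 0.685 and 2.59 CPM against 0.164, 0.155 and 0.561 CPM. In the other direction, XR_483401.3, a noncoding transcript by its accession, had 10.8, 7.80 and 7.30 CPM in cultures 2, 4 and 7 against 1.70, 4.62, 0.587 and 0.575 CPM. XM_003505033.4 had 1.23, 4.33 and 1.36 CPM against 0, 0, 0.587 and 0.575 CPM, close to the limit of detection.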

How the data were processed

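Polyadenylated RNA was sequenced from 19 libraries. Per the submitters' processing notes, reads were handled with Trim Galore and kallisto. The sources used here name no version, genome build or annotation. Per the file headers, the authors deposited an estimated count and a TPM value for each of 46718 transcript targets. Estimated counts were rounded, filtered with filterByExpr (28555 targets left) and scaled by TMM. The quasi-likelihood model (edgeR 4.0.16, run under R 4.3.3) had 1 coefficient per labelled group, no other covariate and a threshold of 0.05 after Benjamini-Hochberg adjustment. All adjusted p-values come from this fit. The fit was tested on simulated data. CPM on the log2 scale used a prior count of 2.

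The paradoxical cultures were divided as 1, 3, 5 and 6 against 2, 4 and 7. A target was called apart where the sets did not overlap and mean log2 CPM differed by at least 1, or 1.5-fold as an alternative. The members and lists were chosen with earlier results of these data known. Symbols came from a RefSeq table of assembly CriGri-PICRH-1.0, used for names only. It matched 528 targets by accession, 334 of them protein coding under 330 symbols. Of the named targets 50 were filtered out as low. A count was taken as whole within 1e-06.

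Genes named were the 10 highest and 10 lowest apart among symbols whose mean log2 CPM was 1 or more, up to 3 per list, a fixed set (Hspa5, Hspa8, Cdk2, Top2a, Cdc25b, Pcna, Casp2, Dicer1, Ahr, Abcb1, Icam1), the insert, and at most 2 unnamed targets in each direction. The 2-fold limit left few symbols, so the rule was repeated at 1.5-fold after the values were seen, and list members that did not separate, together with Cdc7, Orc1, Tcp1 and Top1, were also picked then. Of 26 gene lists 23 had a tested member. Per library, 9.91 to 13.2 M estimated counts were summed, and counting error is small at the levels of most named genes. Alternatives were other scalings, filters and tools (DESeq2 1.42.0, limma 3.58.1), TPM, removal of the length trend, a replicate block and leaving out each culture. Some single genes are not reported here.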

Additional observations from a re-analysis of the deposited data

Results flagged for a closer look

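In 114 checks of a gene in a labelled group of 4 to 10 libraries, 9 had a highest library further from the rest than Dixon's 95% limit allows. Chance flags about 1 in 20 groups where genes are not chosen by their values. That rate does not hold for the paradoxical flags named next. Those targets were chosen from these same values, for their spread or their difference between the sets. Among the paradoxical cultures, Cxcl3 stood at 480.5 CPM in culture 1 with the next culture at 16.1 CPM. Akr1b8 stood at 562 CPM in culture 3 with the next at 266 CPM. Vgf stood at 18.54 CPM in culture 4 with the next at 5.08 CPM, and the predicted transcript XM_003505033.4 stood at 4.325 CPM in the same culture with the next at 1.36 CPM.

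The other 5 were in the uncontrolled cultures and bear on the levels set beside the paradoxical ones. In uncontrolled culture 3, Hspa8 had 1875 CPM with the next culture at 1048 CPM, and Stip1 had 405.8 CPM with the next at 316 CPM. In uncontrolled culture 4, Top2a had 464.1 CPM with the next at 301 CPM, Insig1 had 73.21 CPM with the next at 50.9 CPM, and B4galt5 had 2.705 CPM with the next at 0.576 CPM.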

How the results depend on the processing

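The division was found in these values, so its counts describe these 7 libraries only. Of 54 differences between the sets recomputed under the alternatives, 33 were of targets whose sets did not overlap. None of their 478 values changed sign. For values with 1 culture left out this was fixed in advance, since sets that do not overlap keep their order. Of 303 values for the other 21, 19 changed sign, in 10 genes, among them Hspa5, Cdk2, Top2a, Cxcl3 and Vgf. In all, 22 values moved by more than the spread within the sets. The 1619 targets apart became 982 where mean log2 CPM was 1 or more, 247 among whole-count targets, 3025 at 1.5-fold and 1887 to 4020 with 1 culture left out. The 7 named genes apart became 14 with library size alone, 4 among whole-count genes, 35 at 1.5-fold, 15 with TPM and 7 to 27 with 1 culture left out. Smaller sets overlap less often by construction. Against uncontrolled cultures the 1835 calls became 4762 with DESeq2, 4956 with only the compared groups, 4926 without negative feedback cultures 3 to 7 (added after the data were seen) and 127 to 2141 with 1 library left out. Of 320 values for 16 called named genes in that comparison, 205 kept the call, 115 lost it and none changed sign. Against negative feedback the 77 calls became 1797 with DESeq2, 297 with limma-voom, 11 with RLE size factors, 42 with library size alone, 2 with no filter on low counts and 0 to 989 with 1 library left out. With only the compared groups, edgeR called 0, with 2920 at an unadjusted p under 0.05. The causes were not tested.

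Same-numbered cultures of different conditions showed little common deviation. Correlations were -0.156 to 0.107 between paradoxical and negative feedback and -0.0226 to 0.0316 between uncontrolled and paradoxical. These values cannot show whether cultures of the same number shared more than that number. With a replicate block on the libraries of shared number, edgeR called 463 targets against uncontrolled cultures, and 3437 in the same libraries without it. Against negative feedback it called 0 with the block (2204 at an unadjusted p under 0.05) and 0 without it. Of the 7 paradoxical cultures, 3 correlated best with the negative feedback culture of their own number.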
